A study of Mus musculus with 24 samples.

Results

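The lungs of young adult mice at 6 weeks of age were compared with the lungs of newborn mice at day 1, the widest span of age in a study of microRNAs (miRNAs) after birth. A miRNA entered the comparison if the array's own detection flag found it on all 4 arrays of 6 weeks or on all 5 arrays of day 1. This rule took in 291 of the 611 mouse miRNA names on the array, and 376 of the 611 were detected on at least 1 array of the whole study. Of the 291, 230 were detected on every array of both ages, 32 on every array of 6 weeks alone and 29 on every array of day 1 alone.

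RNA of the whole lung of mice of the inbred C57BL/6 strain was measured on 24 Agilent arrays that take 1 dye, Cy3. Both ages are of the same strain, with no treatment, transgene or deletion named in the labels. Each array stands for 1 biological replicate, and whether a replicate was 1 animal or a pool is not given in the sources used here. The series title names fetal lungs, but all sample labels give postnatal ages, and these were followed; the arrays of days 4, 7 and 14 served here for the shared estimate of spread and for the course between the ages.

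A miRNA is cut from a hairpin as a short RNA that guides a silencing complex to messenger RNAs. Pairing rests mainly on the seed, bases 2 to 8 counted from the 5′ end, so that miRNAs with one seed are expected to reach overlapping sets of messages. Each hairpin has a pair of arms, and an asterisk marks the arm that the older names held to be the minor one. In mice the lung at birth has simple saccules, and septa then divide them into alveoli while cell division slows, elastin and collagen are laid down, and circulating immune cells settle. The let-7, miR-15 and miR-17 families are known for their links with developmental timing and the cell cycle, and miR-29 for its matrix targets.

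The sequences on which the comparison turns come first, because 5 seeds had members called in opposite directions. They are mature sequences from RefSeq (assembly GRCm38.p6), written 5′ to 3′ with the seed in capitals. Of the 291 miRNAs, 232 could be matched to a RefSeq sequence.

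The miR-15 seed was shown by miRNAs of different loci, of which the first pair rose and the second pair fell. They lie at chr11:70235062-70235082 (plus strand), chr11:70234730-70234751 (plus), chr3:69009775-69009796 (plus, within the span of Smc4) and chrX:53054306-53054327 (minus), in this order.
miR-195: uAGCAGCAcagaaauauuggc
miR-497: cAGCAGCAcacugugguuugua
miR-15b: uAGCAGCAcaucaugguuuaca
miR-322: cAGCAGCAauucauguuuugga

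The miR-125 seed, that of the worm's timing miRNA lin-4, was carried by 1 miRNA that rose and by 2 that fell. The miRNA that rose has copies at chr9:41581940-41581961 (plus, within the non-coding gene Mir100hg) and chr16:77646279-77646300 (plus). The others lie at chr17:17830817-17830840 (plus, within the span of Spaca6) and chrX:53053315-53053338 (minus).
miR-125b-5p: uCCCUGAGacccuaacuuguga
miR-125a-5p: uCCCUGAGacccuuuaaccuguga
miR-351: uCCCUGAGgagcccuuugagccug

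The miR-100 seed and the let-7 seed, each with members on several chromosomes, also had calls both ways. The miRNAs miR-100 (chr9:41531437-41531458) and miR-99a (chr16:77598940-77598961) rose and miR-99b (chr17:17830194-17830215) fell, all 3 on the plus strand. Of the 9 miRNAs with the let-7 seed 4 rose, 1 fell and 4 were not called. Among them let-7b (chr15:85707325-85707346) and let-7c (chr15:85706616-85706637 and chr16:77599672-77599693) rose and let-7e (chr17:17830366-17830387) fell, again on the plus strand. Over 22 compared bases let-7c and let-7e differ at 2, and miR-100 and miR-99a at 1.
miR-100: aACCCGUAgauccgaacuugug
miR-99a: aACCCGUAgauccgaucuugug
miR-99b: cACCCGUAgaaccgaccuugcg
let-7b: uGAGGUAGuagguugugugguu
let-7c: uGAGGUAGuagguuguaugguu
let-7e: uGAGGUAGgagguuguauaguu

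For the miRNAs of the largest differences, the miR-29 family is shown as 1 seed on chromosomes 1 and 6, and miR-431, miR-335-5p and miR-551b as the leading falls of 3 different loci. They lie at chr12:109590459-109590479, chr6:30741314-30741336 and chr3:29416879-29416899 on the plus strand, within the spans of Rtl1, Mest and Egfem1.
miR-29a: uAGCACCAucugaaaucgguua
miR-29b: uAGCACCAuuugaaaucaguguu
miR-29c: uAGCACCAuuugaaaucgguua
miR-431: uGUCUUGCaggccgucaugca
miR-335-5p: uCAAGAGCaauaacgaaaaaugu
miR-551b: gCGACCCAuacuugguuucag

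The arrays of the 2 ages were alike in how many miRNAs they detected but not in brightness. At 6 weeks 293.5 ± 16.6 mouse miRNAs were detected per array (SD, n = 4) and at day 1 301.4 ± 27.5 (SD, n = 5), a difference of -7.9, less than either SD (p = 0.603, two-sided, by exact permutation). Before scaling, the 75th percentile of the 226 mouse miRNAs detected on all 24 arrays ran from 1078 to 2564 intensity units at 6 weeks and from 581.1 to 1374 at day 1, higher by 0.998 on the log2 scale at 6 weeks (p = 0.0476, two-sided, by exact permutation). Replicates 4 and 5 of day 1 and replicate 4 of 6 weeks were the dimmest of their ages, and they are called the 3 dim arrays below. Both ages were on each of 3 slides.

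Each array was divided by that 75th percentile and multiplied by 1 common factor, and values are given in these scaled intensity units. A floor of 2.32 units was set before log2. Correlations of log2 values were 0.897 to 0.989 between arrays of day 1, 0.969 to 0.996 between arrays of 6 weeks and 0.829 to 0.897 between the ages.

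The tissue label was checked against miRNAs of the cell types a lung should hold. The endothelial miR-126-3p, the epithelial miR-200a, miR-200b, miR-200c, miR-141 and miR-429 and the smooth muscle miR-143 and miR-145 were detected on every array of both ages. The brain's miR-124 was detected on none of the 9 arrays, its miR-9 on 1, and the liver's miR-122 on 2 arrays of each age. Of 7 striated muscle miRNAs on the array 3 were detected widely enough to enter, and miR-1 read 194, 10774, 673, 35.9 and 63.2 units at day 1 and 1116, 1066, 481 and 186 at 6 weeks. Replicate 2 of day 1 was far above the others, the summed muscle list ran from 238 to 24033 at day 1 and from 773 to 2381 at 6 weeks, and the part of this array in the results was examined by leaving it out: 64 and 119 miRNAs were then called higher and lower.

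With ages tested in a linear model over all 24 arrays (limma, Benjamini-Hochberg adjustment over the 322 names fitted), 183 of the 291 miRNAs had an adjusted p below 0.05, 61 higher and 122 lower at 6 weeks. The background was 62.1% of the 322 fitted names called in either direction, 18.9% higher and 43.2% lower. A further 108 of the 291 were not called. Of the 230 detected on every array of both ages, 55 were higher, 87 lower and 88 not called. The 29 that entered through day 1 alone were all called lower, the direction that the rule of entry favours for them. Of the 32 that entered through 6 weeks alone, 6 were higher and 6 lower. At 2-fold or more, 26 of the 291 were higher and 74 lower. No share of the fitted names was computed at this size, and the 74 include miRNAs set to the floor at 6 weeks. In 44 of the 291 miRNAs with a difference above 0 and 77 with one below 0, called or not, no array of one age reached into the range of the other. Of the fitted names 40.7% had no overlap. Because the samples are bulk RNA, fewer cells of a type and less RNA per cell cannot be told apart in any of these differences.

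The balance of rises and falls depended on the scaling. The median difference was -0.36 over the 291 miRNAs and over all fitted names alike. With no scaling the median of the fitted names was 0.62 and 137 miRNAs were called higher and 50 lower. With the 75th percentile taken over all mouse names 122 were higher and 66 lower, and with median scaling 90 and 81. After quantile normalization the calls were 118 and 83. They were 125 and 79 in the authors' deposited table and 37 and 173 with normexp background correction. With array brightness as a covariate they were 78 and 108. The differences below are given from 0, so one of about -0.36 lies at the median of all fitted names. For some lists that median is printed beside their own. A direction that did not hold under the 6 scalings compared is named as such. Called the same way under all 6 scalings were 52 of the 291 miRNAs as higher and 49 as lower, against 16.1% and 17.7% of the fitted names. Of these, 43 and 49 kept their call with the brightness covariate added to the main scaling, and 20 and 49 kept it both with the covariate and with normexp. For these further counts no share of the fitted names was computed.

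**Figure D1:**
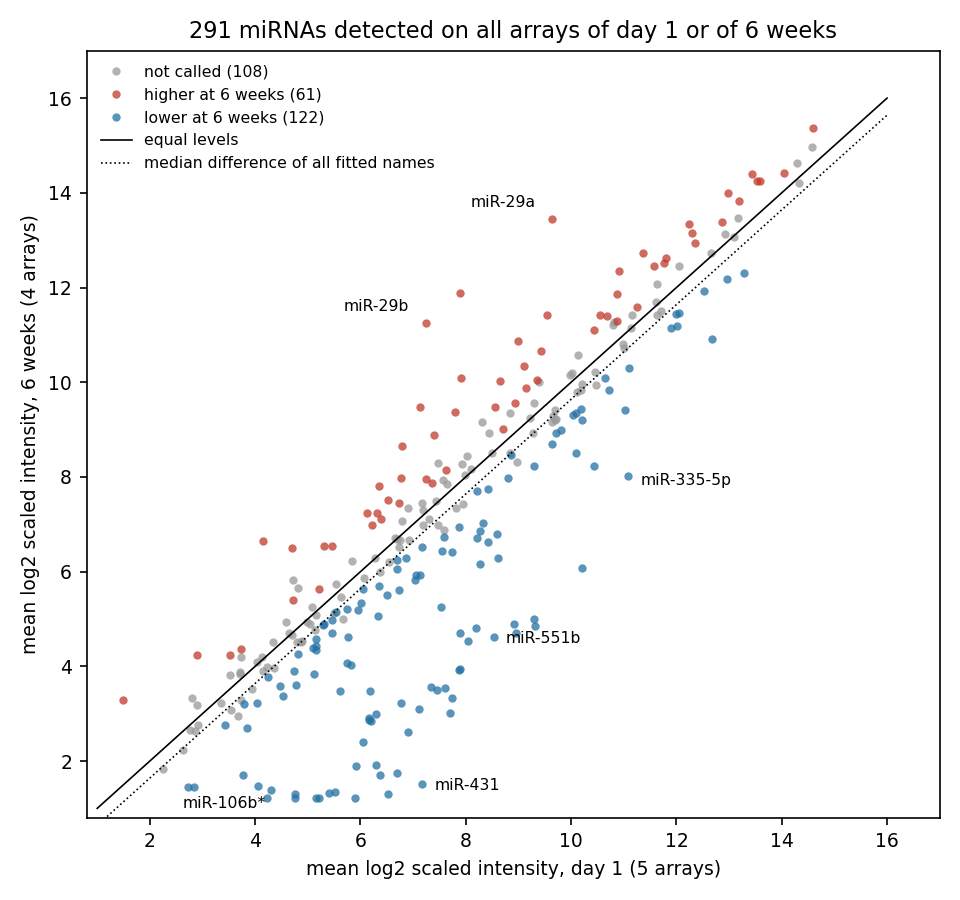
Mean log2 scaled intensity of each of the 291 miRNAs at day 1 (horizontal, 5 arrays) and at 6 weeks (vertical, 4 arrays), coloured by call. The solid line marks equal levels and the dotted line the median difference of all fitted names, -0.36; miR-29a stands farthest above the lines among the bright miRNAs, and miR-431 lies near the floor at 6 weeks.

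The miR-29 family, which silences messages for collagens and elastin, had the 3 largest rises of the comparison. Scaled intensities of miR-29a were 899.5, 951, 1030.2, 509.7 and 708 at day 1 and 11687, 11387, 10967 and 10518 at 6 weeks. All arrays of 6 weeks were far above those of day 1, and they spread little around their mean. The rise was 3.81 ± 0.24 in log2 units (limma, adjusted p = 3.36e-12). For miR-29b the values were 142, 389.6, 507, 34.4 and 81.0 at day 1 and 3037, 3555, 3761 and 867 at 6 weeks, a rise of 4.01 ± 0.66 in log2 units, 16.1-fold (limma, adjusted p = 1.61e-05). The 3 dim arrays gave the lowest miR-29b of their ages, and with array brightness as a covariate its difference was 1.96. The minor arms of the 3 hairpins were called higher too, by 2.50 for miR-29c* and 1.35 for miR-29b*. The third, miR-29a*, was detected on no day 1 array and was at least 2.34-fold higher at 6 weeks. All 3 minor arms entered through 6 weeks alone, so the rule of entry favours a rise for them, and their calls are a description. All 3 signs turned with normexp (-0.34, -1.26 and -1.35 in this order) but under none of the 6 scalings.

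Most seeds with several called members went one way, but in some of them paralogs from different loci parted. Among the 291, 30 seeds were shared by 2 or more miRNAs of known sequence, 15 of them with at least 2 called members. In 10 of these 15 the called members went one way, and in 5 they went both ways. None of the 35 groups of neighbouring miRNAs, at most 10000 bases apart on one strand, held calls in opposite directions. The 35 include groups with fewer than 2 called members, which could not hold opposite calls. In some others the called members include both arms of one hairpin. The 35 groups and the 15 seeds are therefore not counted alike. These counts moved with the setting, from 2 to 7 seeds and from 0 to 4 groups of neighbours with opposite calls.

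The miR-15 seed had 6 members, of which 2 rose, 2 fell and 2 were not called. On the day 1 arrays miR-195, a miRNA known to hold back the cell cycle in the heart after birth, read 2477, 1846, 2260.1, 1436 and 1812 units, and on the arrays of 6 weeks 5119, 5138, 4732 and 5955. The ranges were separate, and the rise was 1.43 ± 0.14 in log2 units, 2.70-fold (limma, adjusted p = 2.94e-09). Its neighbour miR-497 went from 2353, 1901, 2303, 1460.4 and 1575 to 3629.9, 3841, 3517 and 3883, a rise of 0.98 ± 0.13 in log2 units, 1.97-fold (limma, adjusted p = 6.33e-07). Against this, miR-322, the rodent counterpart of a human X-linked miRNA of the cell cycle, dropped from 8315, 7868, 8614, 4305 and 5064 to 2244, 2040.0, 1899 and 1605, with no overlap. Its difference was -1.77 ± 0.19 (adjusted p = 2.25e-08). The loss was smaller for miR-15b, an intronic miRNA of the condensin gene Smc4, at -0.60 ± 0.18, with an adjusted p = 0.00572 and a sign that turned under some scalings (from -0.73 to 0.40). The remaining members, miR-15a and miR-16, were not called, with intervals of the difference from -0.10 to 0.99 (miR-15a was called at 0.60 without replicate 3 of day 1) and from -0.20 to 0.33.

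A similar parting was measured in the 3 clusters that hold miR-99 or miR-100, let-7 and miR-125 side by side. In textbook accounts these clusters arose by duplication. From chromosome 9, miR-100 read 361, 438, 339, 464 and 409.6 at day 1 and 997, 857, 850.2 and 1625 at 6 weeks, a rise of 1.38 ± 0.19 in log2 units, 2.61-fold (limma, adjusted p = 1.4e-06). Its neighbour miR-125b-5p, which has an identical copy on chromosome 16 that the array cannot tell apart, read 4210.0, 5098, 3432, 6775 and 5446 and 9721, 8209, 7863 and 18835, a rise of 1.101 ± 0.26 in log2 units, 2.14-fold (limma, adjusted p = 0.00075). In both, the dim replicate 4 of 6 weeks was the highest array, and without the dim arrays the differences were 1.25 and 1.03. The chromosome 16 member miR-99a and let-7c, made from chromosomes 15 and 16 alike in sequence, rose by 0.70 (adjusted p = 0.00173) and 0.96 (adjusted p = 0.000215). On chromosome 15, let-7b read 7913, 6187, 6254, 11064 and 10040.1 at day 1 and 14842, 13500.5, 12405 and 28994 at 6 weeks, a rise of 1.02 ± 0.23 in log2 units, 2.03-fold (limma, adjusted p = 0.000495).

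The chromosome 17 cluster went the other way in the main scaling. Scaled intensities of let-7e were 4413, 3551, 3622, 4901 and 4992 at day 1 and 2750.2, 2456, 2241 and 4280.5 at 6 weeks, with an overlap between the ages through replicate 4 of 6 weeks. Its difference was -0.58 ± 0.18, that of miR-125a-5p -0.75 ± 0.25 and that of miR-99b -0.73 ± 0.28. All 3 passed the test (adjusted p = 0.00819, 0.0138 and 0.0259), and all 3 signs turned with no scaling, to 0.41, 0.25 and 0.27. Leaving out 1 array ended the call of miR-125a-5p in 2 of 9 cases (replicate 2 or 3 of 6 weeks, lowest size -0.63) and that of miR-99b in 5 of 9 (replicates 1, 2 or 3 of 6 weeks, replicates 4 or 5 of day 1, lowest size -0.57). With the brightness covariate none of the 3 was called, with differences of -0.066, 0.067 and 0.12. Whether these miRNAs fell in absolute terms therefore depends on the scaling, whereas their distance from their paralogs does not, as the ratios within arrays show.

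**Figure D2:**
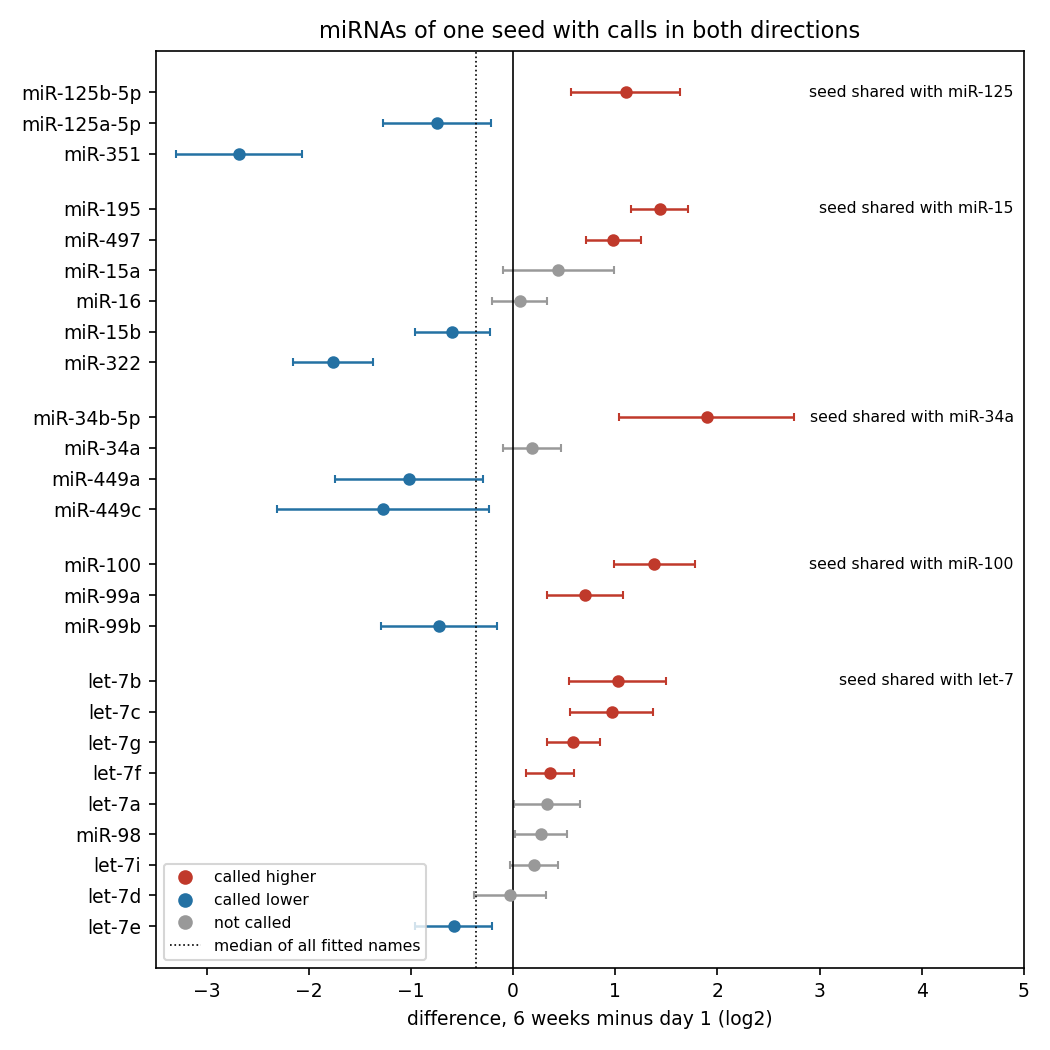
Difference between 6 weeks and day 1 on the log2 scale, with its 95% confidence interval, for the members of the 5 seeds with calls in both directions. Points are coloured by call, the dotted line is the median of all fitted names, and in each group miRNAs of one seed lie on both sides of 0, from 1.89 for miR-34b-5p to -2.69 for miR-351.

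A ratio of 2 miRNAs on one array is free of the scaling as long as both lie above the floor. Its change was therefore followed as the log2 ratio minus its mean over the day 1 arrays. The ratio of let-7c to let-7e lay within -0.029 and 0.037 on the 5 day 1 arrays and at 1.49, 1.52, 1.51 and 1.68 on those of 6 weeks. The arrays of a given age were close together, the dim ones included, and the ratio was 2.92 times as high at 6 weeks. For miR-125b-5p over miR-125a-5p the arrays of 6 weeks stood at 1.88, 1.84, 1.79 and 1.89, above a highest day 1 value of 0.51. The ratio of miR-195 to miR-322 stood at 2.96, 3.10, 3.08 and 3.66 at 6 weeks, 9.19 times its day 1 mean, and that of miR-195 to miR-15b at 1.79, 2.23, 2.35 and 1.76. In 11 of 12 such pairs computed the ages were separate on all arrays, and they overlapped for the arms of miR-382. The arm pairs of miR-29a, miR-106b and miR-382 have values set to the floor, and their ratios depend on it. All 12 pairs were chosen after their differences were seen, so no test is given, and a ratio shows unequal change, not which partner changed.

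**Figure D3:**
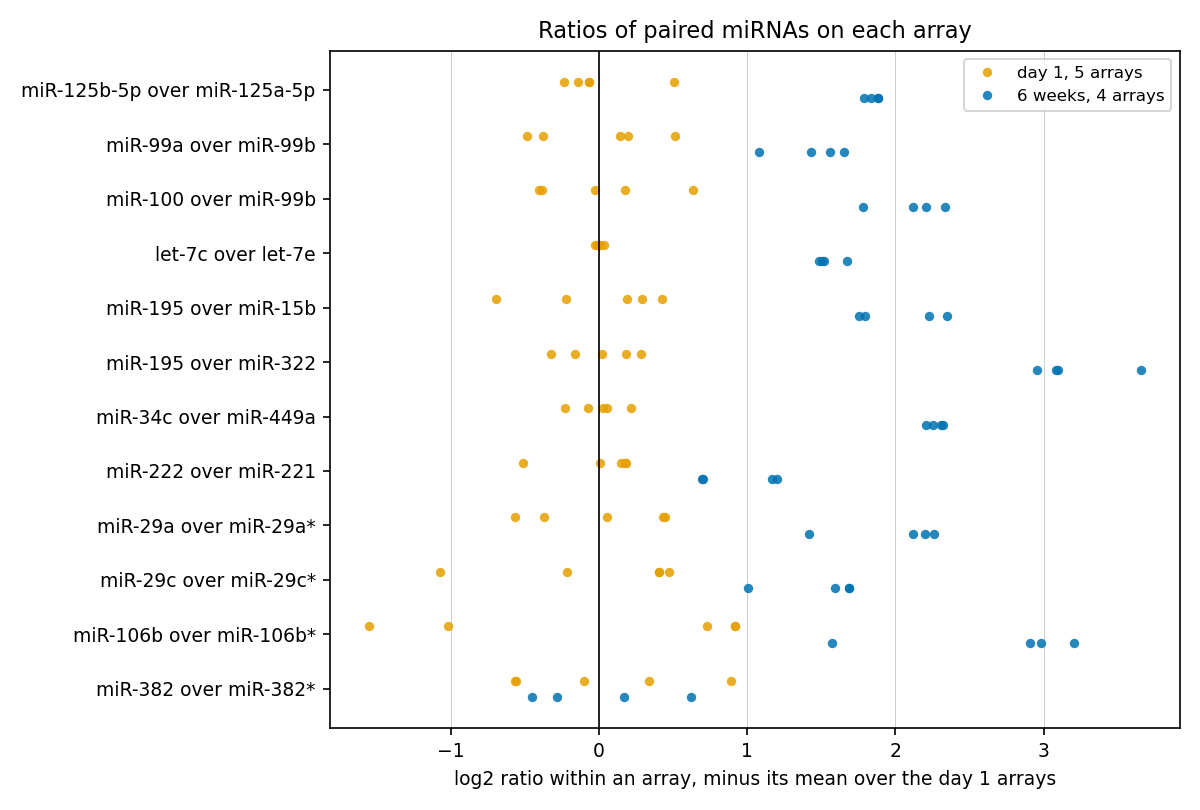
Log2 ratio of 12 pairs of miRNAs on each array, minus the mean of that ratio over the day 1 arrays, with 1 point per array (5 of day 1, 4 of 6 weeks). The points of the 2 ages do not overlap for 11 pairs, and let-7c over let-7e has the narrowest day 1 range, from -0.029 to 0.037; signals under the floor were set to it, as for miR-29a* at day 1 and miR-106b* and miR-382* at 6 weeks.

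The miR-34 and miR-449 miRNAs, which share a seed and are known as promoters of multiciliated cell differentiation, were the remaining seed with opposite calls. On day 1 arrays miR-34b-5p read 588, 774, 1095, 204 and 326 units and on 6-week arrays 2417, 2451, 2455 and 863, a rise of 1.89 ± 0.41 in log2 units, 3.72-fold (limma, adjusted p = 0.000391) with an overlap between the ages. Signals of miR-34c were 658, 640.4, 873, 308 and 434 and 1570.3, 1455, 1539.7 and 828.9, a rise of 1.26 ± 0.27 in log2 units, 2.39-fold (limma, adjusted p = 0.000302), again with overlap. In each age the dim arrays read lowest for both. Meanwhile miR-449a, from the cell cycle gene Cdc20b, read 1371, 1462, 2219, 575 and 919.9 at day 1 and 738, 661, 675 and 359 at 6 weeks, and its difference of -1.02 ± 0.35 was called (adjusted p = 0.0147). Its sign was negative under all 6 scalings, but it was near 0 with no scaling (-0.019), and the call was lost without replicate 4 of 6 weeks (-0.78) or replicate 3 of day 1 (-0.79). The within-array ratio of miR-34c to miR-449a rose on all 4 arrays of 6 weeks, to 2.20, 2.25, 2.31 and 2.32 above the day 1 mean, and the dim array gave a like value. Of the 6 multiciliated cell miRNAs that entered, 4 rose and 2 fell, so the list did not move as one; the 4 were called higher under all 6 scalings and neither of the 2 was called lower under all of them.

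Leukocyte miRNAs were higher in the older lung: 7 of 9 rose and 1 fell, with a median difference of 1.49 against -0.36 for all fitted names. The median of the 9 was 0.57 with normexp and 0.84 with the brightness covariate. The miRNA of activated lymphocytes and macrophages, miR-155, read 23.4, 20.4, 24.9, 27.9 and 35.6 at day 1 and 130.0, 66.6, 61.2 and 124 at 6 weeks, with no overlap, and rose by 1.79 ± 0.21 in log2 units, 3.46-fold (limma, adjusted p = 1.31e-07). With normexp background correction its sign turned to -0.52, without a call (adjusted p = 0.353). The lymphocyte miRNA miR-150 went from 219, 123, 161, 360.1 and 338 to 727, 455, 461 and 1279, a rise of 1.59 ± 0.33 in log2 units, 3.00-fold (limma, adjusted p = 0.000216). The dim arrays were the highest of their ages here, the reverse of miR-29b. The inflammation-regulated miR-146b and miR-146a, which share a seed, rose by 1.49 and 1.23, and the myeloid miR-223 by 0.42. With normexp miR-150 and miR-146b were no longer called, at 0.75 and 0.57 (limma, adjusted p = 0.0587 and 0.0622). The call of miR-146a held there, at 1.04. The call of miR-223 was lost without replicate 4 of 6 weeks (0.25), or without replicate 1, 2 or 3 of day 1 (0.32 to 0.41). For miR-142-3p, found in all blood lineages, the values of 537, 1795, 2461, 226 and 440.4 at day 1 and 4021, 2999.9, 4309.9 and 1059 at 6 weeks overlapped, and its rise of 1.86 went to -0.011 with the brightness covariate. The member that fell, miR-342-5p, differed by -1.28 ± 0.29 (adjusted p = 0.000614). The 3 red blood cell miRNAs were not called, at 0.40 for miR-451, 0.43 for miR-486 and 0.50 for miR-144 (miR-451 was called at 0.56 without replicate 2 of day 1, and miR-486 at 0.65 without replicate 3 of 6 weeks), and their summed level ran from 15135 to 40618 at day 1 and from 24064 to 52181 at 6 weeks. The part of residual blood in the leukocyte differences was not tested.

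Other rises joined miRNAs of different known settings. Intensities of miR-338-3p, from an intron of Aatk, were 119, 163, 151, 67.4 and 85.5 at day 1 and 402, 502, 389 and 332 at 6 weeks, a rise of 1.85 ± 0.25 in log2 units, 3.61-fold (limma, adjusted p = 7.5e-07) without overlap. Both arms of miR-22, whose host is the non-coding Mir22hg, rose alike, miR-22 by 1.38 and miR-22* by 1.46 (0.036 and no longer called with normexp). On day 1 arrays miR-22 read 2982, 2810.2, 2569, 2261 and 2569, and on 6-week arrays 6924, 6079, 6088 and 8450.3, with the dim array highest at 6 weeks. The 4 members of the miR-26 and miR-101 families, known repressors of the histone methyltransferase Ezh2, all rose, from 0.67 for miR-26a to 2.17 for miR-101a. With the brightness covariate the difference of miR-101a was 0.61 and no longer called (adjusted p = 0.151). The Hox cluster miRNAs miR-10a, miR-10a* and miR-10b rose by 0.87, 0.71 and 0.52, of which miR-10a* and miR-10b turned sign with normexp (-1.29 and -0.18). The call of miR-10b was lost without replicate 1 (0.34) or 4 of 6 weeks, or replicate 2 or 3 of day 1 (0.48). Of 7 miRNAs from the miR-23, miR-27 and miR-24 clusters, 6 rose, among them miR-23a by 0.71 and miR-24 by 0.63. Under all 6 scalings 1 of the 6 was called higher, and the median of the 7, 0.71, went to 0.21 with quantile normalization and 0.15 with the brightness covariate.

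Endothelial miRNAs rose in 3 of 4 cases, where 18.9% of all fitted names were called higher. Under all 6 scalings 2 of the 3 were called higher. The median of the 4 was 0.76, and 0.19 with normexp. The level of miR-126-3p, an endothelial miRNA from an intron of Egfl7, was 30689, 22796, 25942, 20169 and 25607 at day 1 and 40335, 39399, 38967 and 52603 at 6 weeks, a rise of 0.78 ± 0.13 in log2 units, 1.71-fold (limma, adjusted p = 2.94e-05) without overlap. Under quantile normalization and the other scalings its difference ran from 0.08 to 1.77, always positive. With quantile normalization it was not called (limma, adjusted p = 0.491). The X-linked pair miR-221 and miR-222, transcribed together, differed: miR-222 rose by 0.98 (adjusted p = 0.00173; -0.20 with normexp), while miR-221 was not called, at 0.042 with an interval from -0.36 to 0.44. The 11 epithelial miRNAs were mixed, with 2 higher, 3 lower and 6 not called, and none of the 3 was called lower under all 6 scalings. Among them miR-205, a miRNA of basal airway cells, read 41.1, 35.7, 60.4, 71.0 and 71.7 at day 1 and 22.5, 22.8, 8.06 and 18.9 at 6 weeks, all arrays of 6 weeks below those of day 1, and fell by 1.69 (adjusted p = 0.00167).

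**Figure D4:**
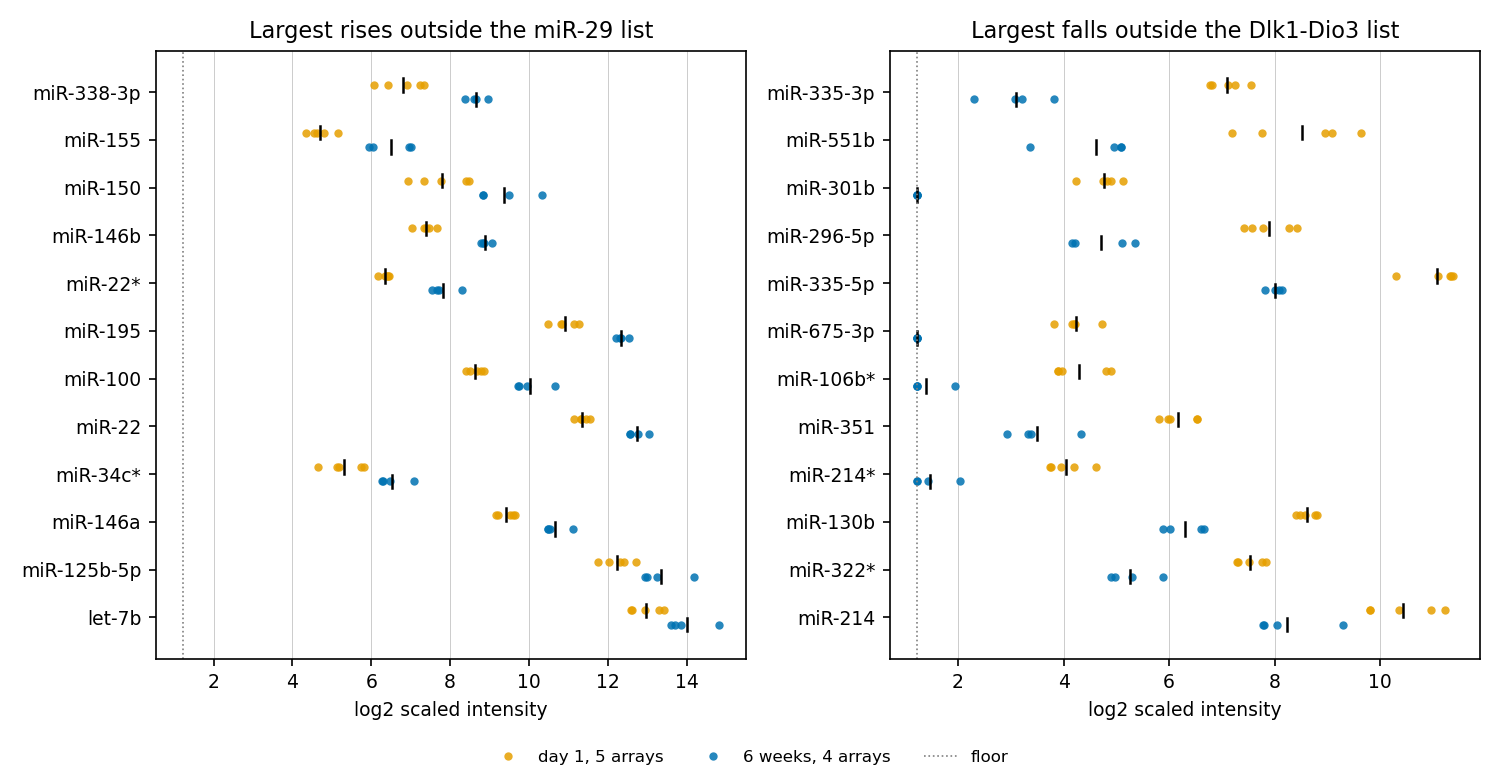
Log2 scaled intensity on each array (5 of day 1, 4 of 6 weeks) of the 12 largest rises outside the miR-29 list (left) and the 12 largest falls outside the Dlk1-Dio3 list (right), with black bars for group means and a dotted line at the floor. By the rule of choice no array of one age overlaps the other; miR-301b and miR-675-3p lie at the floor on all arrays of 6 weeks.

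The largest falls were those of imprinted loci, where one parent's copy is expressed. Of the 35 miRNAs from the Dlk1-Dio3 region on chromosome 12 that entered, 34 fell and miR-494 was not called, with a median difference of -4.02 against -0.36 for all fitted names. Many of them entered through day 1 alone, so their counts are a description. Restricted to the 11 detected on every array of both ages the median was -4.02. The maternal miR-431, which lies antisense to Rtl1, read 148, 143, 143, 140.3 and 143 at day 1, and its 6-week signals of 5.42, 0.751, 1.91 and 2.07 were not detected on any array. It was at least 48.4-fold lower. Its neighbour miR-127 was detected throughout, at 1122, 939, 1015, 1494 and 1443 and 97.8, 49.6, 44.3 and 96.6, a difference of -4.13 ± 0.27 (adjusted p = 4.41e-12). The exception miR-494 read 636, 557, 683, 1197 and 1319.8 at day 1 and 524, 401, 552 and 1045 at 6 weeks, overlapping ranges with an interval from -1.06 to 0.089. Without replicate 4 of 6 weeks it was called lower, at -0.76 (adjusted p = 0.0165). Within the 22 members of the chr12:109709065-109743784 neighbourhood it was the 1 member not called.

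Among other imprinted hosts, miRNAs of Mest, H19 and the Gnas domain showed the same direction. The miRNAs of Mest, a paternally expressed gene of growth, were miR-335-5p with 2660.0, 2556, 2602, 1254 and 2172 at day 1 and 282, 226, 258 and 269.6 at 6 weeks, and miR-335-3p. All arrays of 6 weeks lay well below those of day 1, and the differences were -3.07 ± 0.19 (adjusted p = 3.16e-12) and -4.004. The H19 product miR-675-3p, at 17.9, 26.6, 14.2, 18.3 and 18.6 on day 1 arrays, was detected on no array of 6 weeks and was at least 7.82-fold lower. In contrast, miR-483 from Igf2 was not called, at -0.38 with an interval from -0.92 to 0.17, though it was at -0.58 (adjusted p = 0.0494) without replicate 3 of day 1 and called higher under 3 other scalings. The miRNA of the imprinted Gnas domain, miR-296-5p, fell from 219, 191, 170.2, 342 and 309.6 to 34.6, 18.6, 17.8 and 40.8, a difference of -3.18 ± 0.28 (adjusted p = 6.74e-10). The signs of these differences, that of miR-483 left aside, were negative under all 6 scalings.

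MiRNAs of proliferating cells were lower at 6 weeks in the main scaling. Of 10 members of the miR-17 clusters, which are needed for growth of the embryonic lung, 8 were called lower and 2 not, with a median of -0.77. None of the 8 was called lower under all 6 scalings. The median of the 10 went to -0.097 with the 75th percentile over all mouse names and turned sign with no scaling, to 0.23. The one that moved most, miR-18a, read 400.1, 421, 462, 151.97 and 242 at day 1 and 97.3, 76.9, 71.3 and 48.8 at 6 weeks, a difference of -2.12 ± 0.28 (adjusted p = 5.35e-07). All 9 members of the X-linked miR-322 cluster were called lower, with a median of -1.12. Under all 6 scalings 2 of the 9 were called lower, and without scaling the median went to -0.12 (-0.44 when the 75th percentile was taken over all mouse names). Of the cluster miR-351 had the largest difference, from 63.4, 55.97, 65.0, 92.7 and 92.2 at day 1 to 9.99, 7.60, 10.4 and 20.1 at 6 weeks. Its difference was -2.69 ± 0.30 (adjusted p = 3.74e-08), and its sign was negative under all 6 scalings.

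Among the miRNAs of the miR-130 and miR-301 family, of which 4 of 5 fell (2 of them under all 6 scalings), the loss differed widely by member. The difference was -0.98 for miR-130a, -1.58 for miR-301a and -2.31 for miR-130b, although miR-130a and miR-130b differ at 2 of 22 bases. With no scaling miR-130a was at 0.018. Values of miR-130b were 447, 358, 337, 382 and 435 at day 1 and 97.6, 64.7, 59.0 and 102 at 6 weeks, with no overlap. The lowest, miR-301b, read 29.7, 35.1, 28.3, 18.8 and 26.7 at day 1, was detected on no array of 6 weeks and was at least 11.3-fold lower. In the miR-181 family 3 of 4 fell, from -0.39 for miR-181c to -1.51 for miR-181d, none was called lower under all 6 scalings, and miR-181c turned sign with no scaling (0.61).

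Single miRNAs of other settings fell as well. The level of miR-551b was 498, 544, 798, 146 and 217 at day 1 and 33.8, 30.9, 34.1 and 10.3 at 6 weeks, and its difference was -3.90 ± 0.64 (adjusted p = 1.51e-05). The 3 dim arrays were its lowest at each age. The hypoxia-induced miR-210 read 319, 371, 279, 267 and 306 at day 1 and 137, 107.5, 102 and 123 at 6 weeks, a difference of -1.39 ± 0.13 (adjusted p = 1.87e-09). Intensities of miR-204 were 41.0, 44.2, 37.6, 69.6 and 59.0 and 17.6, 9.86, 6.09 and 14.4, a difference of -2.14 ± 0.26 (adjusted p = 2.13e-07). Of 7 mesenchymal and smooth muscle miRNAs 5 fell and 2 were not called. Under all 6 scalings 2 of the 5 were called lower, and the median of the 7 was -0.79 in the main scaling, -0.11 with the 75th percentile over all mouse names and 0.21 with no scaling. From the non-coding host Dnm3os, miR-214 read 1315, 889, 889.8, 2399.8 and 1999 at day 1 and 264, 223, 219 and 630.5 at 6 weeks, with a difference of -2.20 ± 0.35 (adjusted p = 9.16e-06), and miR-199a-5p differed by -1.62 ± 0.15 (adjusted p = 1.53e-09). Both had negative signs under all 6 scalings.

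The smooth muscle pair miR-143 and miR-145 was among the 8 miRNAs with the smallest differences of the 85 that were detected on all 24 arrays and not called. Scaled intensities of miR-143 were 2192, 2615, 3217, 1478 and 2088 at day 1 and 2368, 2079.6, 2459 and 2224 at 6 weeks, with a difference of 0.022 and an interval from -0.31 to 0.36. For miR-145 they were 262, 244, 308, 589 and 545 and 298, 240.0, 319 and 743, with an interval from -0.64 to 0.63 and the dim arrays highest at each age. The others were miR-320, miR-200b*, let-7d, miR-872, miR-1892 and miR-221, with differences between -0.04 for miR-1892 and 0.042 for miR-221. A difference near 0 is relative to this scaling: without scaling miR-143 and miR-145 were higher at 6 weeks, by 1.02 and 0.99.

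The 2 arms of a hairpin, made from one transcript, were compared where both were among the 291. Of 57 such pairs 34 had both arms called, all in the same direction. The differences of the arms lay a median of 0.39 apart on the log2 scale. In miR-106b, from an intron of the replication gene Mcm7, 1 of the arms was called. The minor arm read 14.9, 14.8, 15.7, 27.9 and 29.8 on day 1 arrays and 0.71, 1.11, 1.42 and 3.85 on those of 6 weeks, where 3 of 4 values lie under the floor. The size of its fall is set by the floor: it was -2.89 in the main setting (adjusted p = 2.33e-09), -3.57 with the floor 2 times lower and -2.08 with it 2 times higher. Its major arm was not called, at 1761, 2003, 2125, 679 and 1052 and 1529, 1312, 1246 and 819, with an interval from -0.77 to 0.32, but it was called lower without the dim arrays (-0.53, adjusted p = 0.000571). With the floor in place, the log2 ratio of its arms ranged from -1.55 to 0.92 around its mean at day 1 and from 1.57 to 3.20 at 6 weeks, and the dim arrays were the lowest of each age. For miR-29b the rise of the major arm was larger than that of the minor arm by 2.66, but this minor arm was not detected on every day 1 array. No gap is given for miR-29a, whose minor arm was not detected at day 1.

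Of the names that did not enter, 253 of 320 were detected on none of the 9 arrays and 67 on some. The 19 names of the embryonic stem cell clusters were all among those left out. From the Sfmbt2 cluster, 12 of 39 names entered and 6 were called lower by small differences, down to -0.73, that changed sign with no scaling. Gut and liver miRNAs miR-192 and miR-194, which share a transcript, rose by 0.92 and 0.77 (-0.35 and -0.48 with normexp). The liver's miR-122, detected on 2 arrays of each age, ran from 1.97 to 78.3 units at day 1 and from 2.44 to 16.6 at 6 weeks.

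The days between showed when the differences arose, as group means with no added test of each step. The mean log2 level of miR-29a was 9.64, 9.67, 9.84, 11.61 and 13.44 in order of age (days 1, 4, 7 and 14 and 6 weeks), so most of its rise came after the first week. For miR-195 the means were 10.92, 11.61, 11.76, 12.15 and 12.35, with the biggest step between days 1 and 4. For miR-210 the means were 8.26, 7.71, 7.34, 6.90 and 6.87, with little further change after day 14. In miR-551b the 2 ages do not bracket the course: its means were 8.53, 9.71, 10.41, 7.30 and 4.62, highest at day 7. The means of miR-335-5p, 11.08, 11.01, 11.11, 10.10 and 8.01, kept level over the first week before they dropped. The comparison of the end ages alone therefore joins early and late changes.

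**Figure D5:**
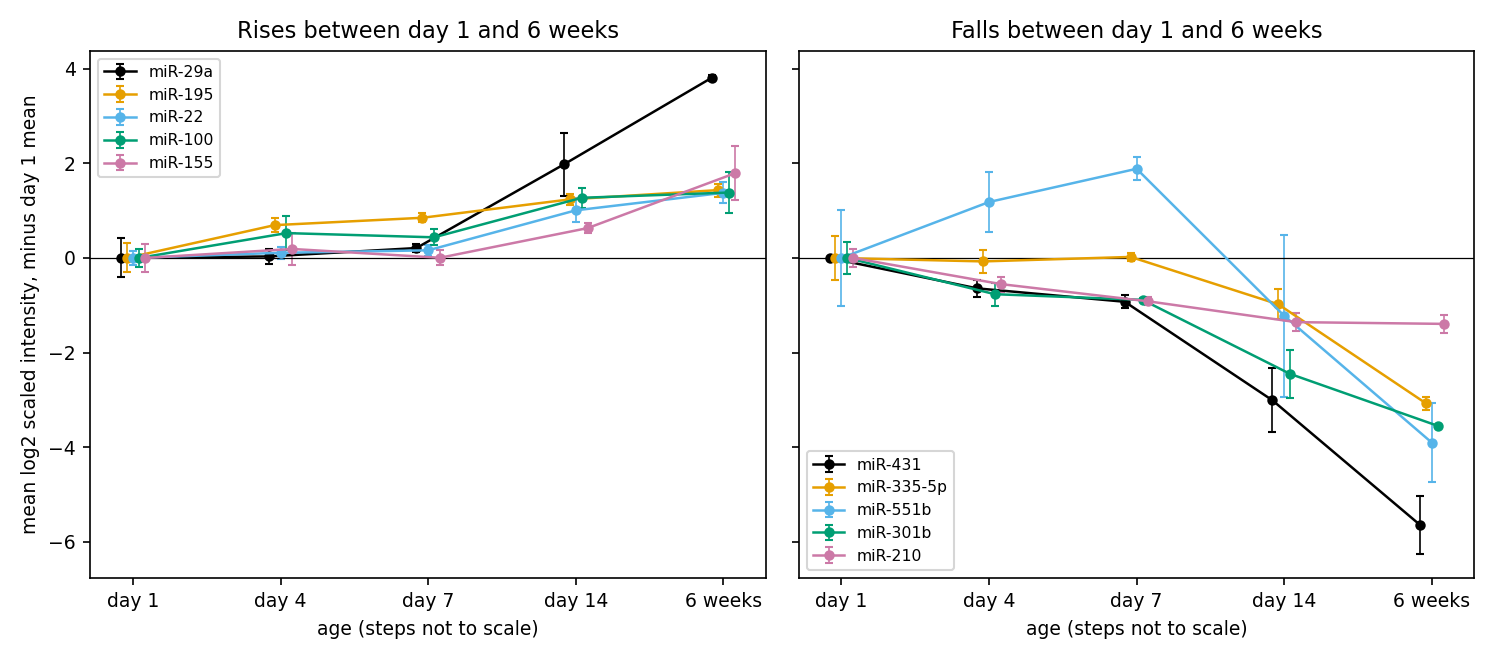
Mean log2 scaled intensity minus the day 1 mean at 5 ages, with error bars of 1 SD over arrays (5 per age, 4 at 6 weeks), for 5 miRNAs that rose (left) and 5 that fell (right). The rise of miR-29a lies mainly after day 7, the fall of miR-210 mainly before day 14, and miR-551b is highest at day 7; points are shifted sideways for legibility, and steps of age are not to scale.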

How the data were processed

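MiRNAs were measured in whole-lung RNA on 24 arrays (day 1, 4, 7 and 14, 5 each; 6 weeks, 4). Per the labels' protocols RNA came from a miRNeasy kit and was labelled with Cy3. Per the file headers, the deposited intensity values come from Agilent Feature Extraction 10.7.1.1, background-subtracted per spot and summed per miRNA by that software, with no adjustment between arrays; the submitters' processing notes name the same version. The deposited log2 table of the authors has columns of equal distribution (median 2.41 each) that follow log2 of the total signals (correlation at least 0.998). How it was made is not given in the sources used here, and it served as an alternative.

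From the total signal per miRNA, values were scaled so that all arrays share one 75th percentile over the 226 mouse names detected on all 24 arrays, then floored at 2.32 and put on the log2 scale. The 322 names detected on every array of some age (319 mouse, 3 viral) were fitted with limma 3.58.1 (R 4.3.3) over 5 ages, two-sided, with Benjamini-Hochberg adjustment. A call is an adjusted p below 0.05; errors after ± are standard errors unless SD is named; intervals are 95%. A fold for a miRNA detected on no array of an age is a bound against the lowest detected signal of each array. On simulated data of 322 names, 100 of them changed, the fit recovered 82% of 2-fold and 98% of 4-fold changes, and 3.23% of calls were false. The simulated noise was independent between miRNAs and arrays, and rises and falls were balanced. The real arrays share deviations over many miRNAs, so these rates need not hold for them. Permutation tests used scipy 1.17.1, and drawing matplotlib 3.10.9.

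Named are the 12 largest rises and falls, the same outside the miR-29 and Dlk1-Dio3 lists, called, without overlap and detected on all arrays of the higher age; the 8 smallest differences; members of 29 lists; shared seeds; and arm pairs. The members and lists were chosen with earlier results of these data known. The planned normexp alternative used the median spot signal, since the files used here carry no mean spot signal. Replicate numbers are shared by the ages, and the 4 same-numbered pairs deviated together (correlations 0.310, 0.643, 0.853 and 0.893), though replicate 1 of 6 weeks correlated best with replicate 2 of day 1. Alternatives were other scalings, background corrections, floors and filters, blocks and left-out arrays. The number of arrays limits the precision. Near-identical miRNAs may share probe signal, and this was not tested.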

Additional observations from a re-analysis of the deposited data

Results flagged for a closer look

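In groups of 4 or 5 arrays, single arrays of 10 of the 102 groups examined (each miRNA named by the rule at each age, brightness and the number of detected miRNAs) stood apart from the rest by Dixon's criterion at 95%, where chance gives about 1 in 20. At day 1, replicate 4 was low for miR-335-5p (1254 units). At 6 weeks, replicate 4, the dim array, was low for miR-29b (867) and miR-551b (10.3). It was high for miR-146a (2245), miR-221 (944), miR-200b* (42.5) and miR-106b* (3.85). Replicate 1 of 6 weeks was high for 3 miRNAs of the Dlk1-Dio3 region, miR-431 (5.42), miR-409-5p (3.00) and miR-411* (5.97), all 3 below detection on that array. For miR-431, miR-409-5p and miR-106b* the other arrays of 6 weeks were all set to the floor. Any single value above the floor would have been flagged there, so these flags do not show an outlying array. Arrays of one age share these deviations over many miRNAs, so the 10 are not independent.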

How the results depend on the processing

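The counts of calls kept within 1.5 times of 61 higher and 122 lower with summed spot signals, either floor, no filter on dim names, only names detected on all 24 arrays, only the 9 arrays, the slide as a block, the brightness covariate and the dim arrays left out. Leaving out each array gave 54 to 64 higher, 109 to 138 lower, and -17.5 to -0.4 detected miRNAs per array. The counts moved beyond that to 122 higher and 66 lower with the 75th percentile over all mouse names, 137 and 50 with no scaling, 118 higher with quantile normalization, 81 lower with median scaling and 37 higher with normexp; the values of the authors' deposited table gave 125 and 79. The share of higher among the calls was 33.3% in the main scaling and 73.3% with no scaling. The median difference over the 291 miRNAs was -0.57, -0.39 and 0.024 within slides 1, 2 and 3. With the replicate number as a block, 57 were higher and 119 lower; 7 calls were lost and none of the paired results printed in the report changed its call.

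Of 79 miRNAs given with values, 63 called, the differences changed sign as follows, where either value passed the test. With no scaling they became 0.97 for let-7d, 0.41 for let-7e, 0.25 for miR-125a-5p, 0.018 for miR-130a, 0.99 for miR-145, 0.40 for miR-15b, 0.61 for miR-181c, 0.96 for miR-1892, 0.97 for miR-200b*, 0.99 for miR-320, 0.62 for miR-483, 0.51 for miR-494 and 0.27 for miR-99b. With the 75th percentile over all mouse names they were 0.64 for let-7d, 0.091 for let-7e, 0.077 for miR-15b, 0.28 for miR-181c, 0.63 for miR-1892, 0.65 for miR-200b* and 0.66 for miR-320. With the brightness covariate they were 0.42 for let-7d, 0.067 for miR-125a-5p, -0.011 for miR-142-3p, -2.65 for miR-144, 0.91 for miR-145, 0.67 for miR-1892, 0.72 for miR-200b*, 0.76 for miR-320, -0.54 for miR-872 and 0.12 for miR-99b. With normexp they were -1.29 for miR-10a*, -0.18 for miR-10b, -0.52 for miR-155, -0.35 for miR-192, -0.48 for miR-194, -0.20 for miR-222, -1.35 for miR-29a*, -1.26 for miR-29b*, -0.34 for miR-29c* and -0.80 for miR-872. With quantile normalization they were -0.26 for miR-16, 1.17 for miR-1892, 1.16 for miR-200b*, 0.72 for miR-320 and 0.81 for miR-483, and with the values the authors deposited 1.17 for miR-1892, 1.16 for miR-200b*, 0.72 for miR-320 and 0.80 for miR-483. Within slide 3 they were 0.0096 for let-7e, 0.088 for miR-125a-5p and 0.24 for miR-99b, and within slide 1 -0.084 for miR-10b. A further 79 sign changes were of differences called in neither setting. Besides these, settings other than a left-out array ended a call 60 times and made one 31 times. Leaving out an array turned no called sign. It ended a call for 5 miRNAs and made one for 5. The cause of these changes was not tested. Floors limit the size for miR-29a*, detected on no day 1 array, and miR-106b*, with 3 of 4 values of 6 weeks under the floor.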

Other observations

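Base composition was examined over the 185 miRNAs with a sequence that were detected on every array of day 1 and of 6 weeks. The deviation of an array was taken from the mean of the other arrays of its age. This deviation went with the share of G and C bases of the miRNA. Across these miRNAs, which share the 9 libraries, the correlation of the deviation with that share was 0.53 and 0.34 on the dim replicates 4 and 5 of day 1 and 0.37 on the dim replicate 4 of 6 weeks. On the bright arrays it lay between -0.52 and 0.011. On replicate 4 of day 1 the third of miRNAs with the least G and C had a median deviation of -0.77 and the third with the most one of 0.45. The difference between 6 weeks and day 1 had a correlation of -0.25 with the share of G and C, and one of 0.0042 with array brightness as a covariate. Medians of the difference were 0.20 for the least G and C and -0.55 for the most in the main scaling, and -0.15 and 0.078 with the covariate. The part of base composition in single differences was not tested.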
